A study of Mus musculus with 8 samples.

Results

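The genes described here are the mouse genes named for parts of the motile cilium axoneme, the microtubule core of a beating cilium or sperm tail. They were taken by name, as the protein-coding rows of the deposited count table whose symbol starts with Dnah, Dnaic, Dnali, Cfap, Rsph, Tekt or Drc followed by a digit. The rule itself uses no measured value, but it was set with earlier results of these data known. This gave 65 genes of 54532 in the table, of which 22046 are protein-coding. The set holds 18 axonemal dynein genes (15 heavy chain genes of the Dnah family, 2 intermediate chain genes and 1 light intermediate chain gene) and 47 other genes. A symbol that starts with Cfap does not by itself place a protein in the axoneme, so the name pattern is broader than the structure.

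Bulk RNA sequencing was done on brain tissue of male mice aged 3 months, either wild type (WT) or labelled Nsun5-KO, with 4 libraries of each genotype analysed here. Nsun5 encodes a methyltransferase that places 5-methylcytosine on ribosomal RNA, and the series asks how its loss affects the brain, myelin and sleep. Per the labels, both genotypes came from a shared litter, 5 mice of each were used, and all were anaesthetised with pentobarbital at 50 mg/kg. How the Nsun5 allele was made, which exons it removes, and whether a library is a single mouse are unstated in the labels, so p-values measure the spread between these libraries.

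In a motile cilium, a ring of doublet microtubules surrounds a central pair, and dynein heavy chains arranged as outer and inner arms walk along the neighbouring doublet to make the cilium bend. Radial spokes and the central apparatus regulate the arms, the nexin-dynein regulatory complex links neighbouring doublets, and tektins and other inner proteins line the inside of the doublets. In the adult brain, beating cilia are carried by the ependymal cells that line the ventricles, with related cells in the choroid plexus, while most neurons and glia carry a single non-motile primary cilium without these arms. The genes are controlled in large part by FOXJ1 and by RFX factors, which bind an inverted-repeat element called the X-box.

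Short stretches upstream of the start sites are shown for Cfap44, the gene with the smallest p among the members outside the dyneins, and for further members that carry the same letters, of which Cfap45 was chosen after its values were seen. They are from RefSeq on GRCm38.p6, the assembly also called mm10, and are written 5′ to 3′ on the strand of the gene. The capitals mark GTTGCTA or its reverse complement TAGCAAC, a spelling of an arm of the X-box. Their positions are chr16:44394756-44394794 for Cfap44, chr11:114727370-114727408 for Dnaic2, chr1:172521095-172521133 for Cfap45, chr1:53706813-53706851 for Dnah7a (minus strand), chr1:46066819-46066857 for Dnah7b and chr1:46425439-46425477 for Dnah7c.
Cfap44: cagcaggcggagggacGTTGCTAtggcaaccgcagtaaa
Dnaic2: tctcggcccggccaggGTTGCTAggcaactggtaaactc
Cfap45: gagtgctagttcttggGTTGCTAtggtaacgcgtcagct
Dnah7a: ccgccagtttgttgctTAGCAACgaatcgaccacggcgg
Dnah7b: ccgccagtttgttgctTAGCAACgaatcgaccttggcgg
Dnah7c: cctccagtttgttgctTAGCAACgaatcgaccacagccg

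The 8 libraries held 15642086 to 17829523 counts and 22210 to 22944 genes with at least 1 count. No 2 libraries of a genotype agreed within sampling noise (chi-square per degree of freedom 7.22 to 20.4). On the first principal component, which held 25.7% of the variance, WT replicates 1 and 2 stood apart from the other 6 libraries, so the member results are also given without them. Nsun5 itself had 91, 82, 103 and 109 counts in WT and 102, 124, 83 and 110 in those labelled Nsun5-KO, a log2 fold change of 0.13 (SE 0.15, edgeR adjusted p = 0.817). The count over the whole gene therefore did not separate the genotypes, and the second group is called by its label throughout.

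The members were sparse in this tissue. All 18 dynein genes together took 629 to 1157 counts per library, which is 0.00376% to 0.0074% of the library. The other 47 took 5331 to 6769 counts, or 0.0329% to 0.0433%. Per length, the dynein heavy chain genes had WT mean levels of 0.0412 to 0.948 FPKM (fragments scaled to gene length and library size, median 0.151), over gene lengths of 12009 to 19980 bases. The other members ranged more widely, from 0.0563 to 38.5 FPKM with a median of 0.679. Low counts limit the precision of single members, and in bulk tissue fewer ciliated cells and less RNA per ciliated cell cannot be told apart.

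Most members had lower values in the libraries labelled Nsun5-KO, but no single member passed the adjusted edgeR test. After the filter on low counts 56 of the 65 members were tested, all 18 dyneins and 38 of the others. The edgeR quasi-likelihood test called 0 of 56 at an adjusted p below 0.05, against 0.0% of the 16062 genes tested. At an unadjusted p below 0.05, 8 of 18 dyneins and 11 of 38 others were lower, where 5.05% of all genes tested were, and 1 other member (Cfap74) was higher, where 5.3% of all genes were. The fitted log2 fold change was below 0 for 16 of 18 dyneins and 32 of 38 others, against 51.4% of all genes.

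The median log2 fold change was -0.54 over the dyneins and -0.43 over the other tested members, beside -0.01 over all genes tested. The dyneins ranged from -1.91 to 0.30 and the others from -1.45 to 0.25. The filter level lay near 0.603 CPM (the count scaled by the effective library size). Of the tested members, 40 reached it in all 8 libraries, 10 in all 4 WT but fewer libraries labelled Nsun5-KO, and 2 the other way round. Since the filter could favour members that are high in a single group, edgeR was also run on every gene with a count: 56 of the 65 members were then below WT, against 51.8% of all genes, and the medians were -0.53 for dyneins and -0.47 for the others.

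Without the low-count filter edgeR called 2 members lower, Dnah6 and Cfap44, where 0.107% of all genes were called lower. DESeq2 called the same 2 genes, where 0.261% of all genes were. Leaving out WT replicates 1 and 2 left 12 of 18 dyneins and 30 of 39 others below WT, against 49.7% of all genes, with medians of -0.35 and -0.26. In that comparison 2 dyneins and 3 others were lower at an unadjusted p below 0.05, against 3.83% of all genes. With 2 WT libraries against 4, groups without overlap are commoner: 11 of 57 members were lower without overlap, against 9.19% of all genes, and 3 higher, against 8.92%. Leaving out replicates 1 and 3 labelled Nsun5-KO gave 27 of 58 lower without overlap, against 7.63%, and 2 higher, against 7.03%. Unlike WT replicates 1 and 2, this pair did not stand apart on the first principal component. It lay at 16.3 and 16.2, between replicates 2 and 4 of that group at 23.8 and 5.3. On the second component, which held 19% of the variance, the pair lay at 9 and 34.3, apart from those replicates at -9.1 and -21.1. WT replicate 2 alone moved the median of the other members to -0.26 when it was left out, while the dynein median stayed between -0.59 and -0.45 over the 8 fits that each left out 1 library.

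**Figure D1:**
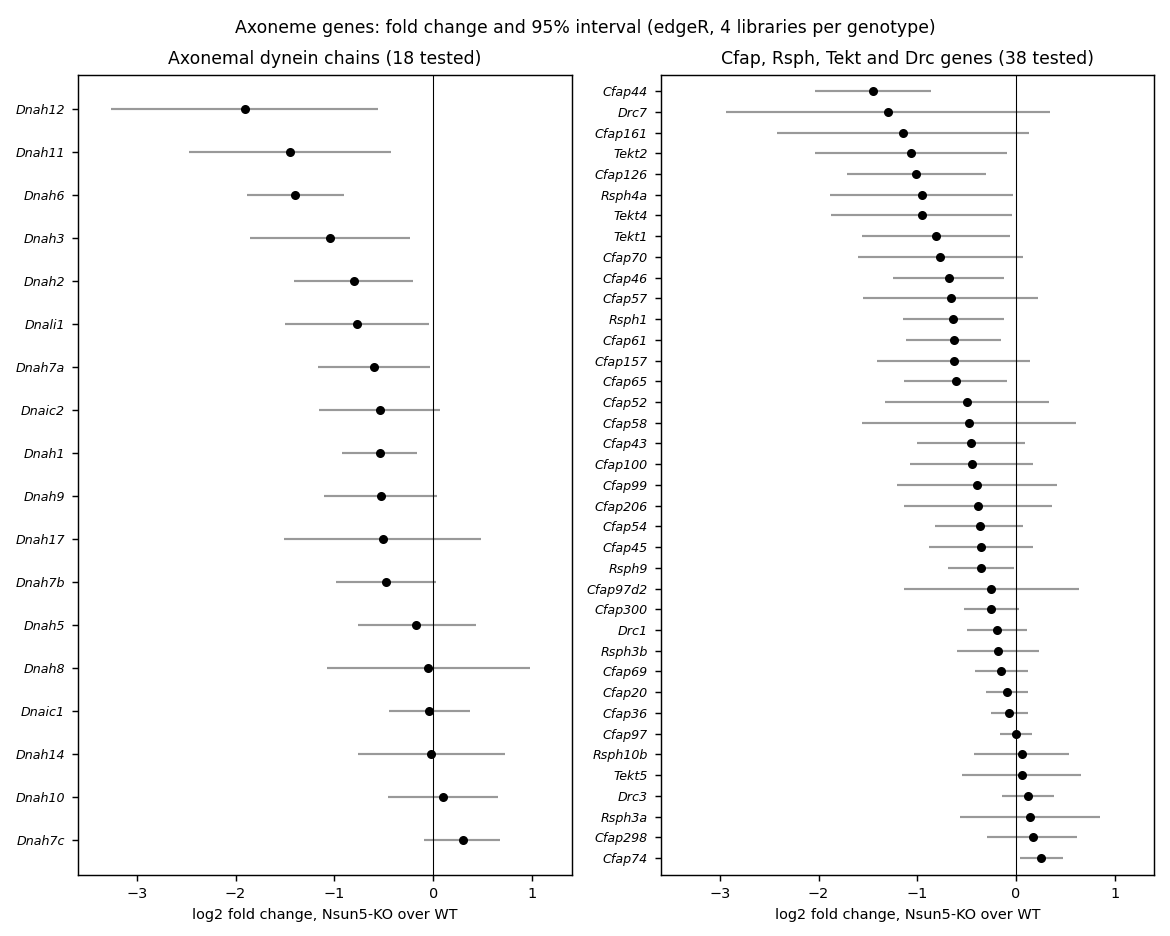
Fitted log2 fold change (libraries labelled Nsun5-KO over WT, x axis) of each tested member (y axis), with dyneins and other members in separate panels; points are edgeR estimates and bars their 95% confidence intervals. Most points lie left of 0, with Dnah12 at -1.91, Cfap44 at -1.45 and Dnah6 at -1.40 among the lowest, and many intervals cross 0.

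Summed over the class, the dyneins did not overlap between the groups. Their sum came to 59.3, 74.2, 52.7 and 53.3 CPM across WT and 44.96, 37.1, 47.9 and 45.1 CPM in the other. In counts the sums were 997 ± 123 and 727 ± 73.4 (SD, n = 4 each). WT replicate 2 was the highest and replicate 2 labelled Nsun5-KO the lowest. The other members summed to 372.2, 434.1, 340.9 and 342.0 CPM in WT and 335.2, 328.1, 336.6 and 335.3 CPM in the other group. The groups did not overlap here either, but the gap between their nearest libraries was small beside the WT spread. Cfap36 alone contributed 97.0 to 125 CPM of this sum.

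Among the members, extreme values gathered in a pair of libraries. The highest of the 8 values fell in WT replicate 2 for 10 of 18 dyneins and for 20 of 38 others. The lowest fell in replicate 2 labelled Nsun5-KO for 7 dyneins and 13 others. Extremes were not counted over all genes, so this is not read as particular to the members. These libraries also lay at the ends of the first principal component, at -36 and 23.8. A score per library, in which log2(CPM + 0.5) of the tested members was averaged and centred on WT, gave the dyneins 0.01, 0.28, -0.18 and -0.11 in WT and -0.35, -0.64, -0.33 and -0.37 in the other group, so the groups did not overlap. For the other members the score was 0.01, 0.24, -0.11 and -0.14 against -0.29, -0.54, -0.30 and -0.36.

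Of the 8 dyneins that were lower at an unadjusted p, 6 were inner arm heavy chains. Of 9 such genes 7 were below WT, against 51.4% of all genes, with a median of -0.60. Groups did not overlap for 4 (Dnah1, Dnah3, Dnah6 and Dnah12), where 2.71% of all genes had all 4 values lower. Dnah3 and Dnah12 reached the filter level in all WT but fewer libraries labelled Nsun5-KO, and the filter could favour such members. Without the filter 5 of 18 dyneins were lower without overlap, against 1.99% of all genes. Dnah6 (ENSMUSG00000052861, chr6:73017606-73221651, minus strand, mm10) encodes an inner arm heavy chain. It had 4.59, 5.51, 3.87 and 4.14 CPM in WT and 2.26, 1.24, 1.55 and 1.82 CPM in those labelled Nsun5-KO. Every WT value was above every value of the other group. The means were 4.53 ± 0.721 and 1.72 ± 0.433 CPM (SD, n = 4), a log2 fold change of -1.40 (SE 0.23, 95% interval -1.89 to -0.90, edgeR adjusted p = 0.187). The exact permutation test of the means gave p = 0.0286, the smallest that 4 against 4 allows.

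Over the alternatives the log2 fold change of Dnah6 lay between -1.56 and -0.25, the last on log2(FPKM + 1), which compresses low genes. Its adjusted p lay between 0.000286 (DESeq2) and 0.588, and passed 0.05 in 2 of 20 alternatives. Without WT replicates 1 and 2 the log2 fold change was -1.22.

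Dnah12, another inner arm heavy chain (chr14:26693274-26891703, plus strand), was the member with the most negative fitted value among those tested, from few counts. It had 17, 37, 31 and 14 counts in WT and 11, 0, 8 and 7 in the other group. In CPM these are 0.989, 2.37, 1.88 and 0.794 against 0.692, 0, 0.497 and 0.397, with no overlap but a narrow gap between WT replicate 4 and replicate 1 labelled Nsun5-KO. The log2 fold change was -1.91 (SE 0.61, edgeR adjusted p = 0.374).

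Dnah3 had 1.10, 1.79, 0.847 and 1.65 CPM in WT and 0.818, 0.354, 0.746 and 0.681 CPM in the other group, a log2 fold change of -1.05 (SE 0.37, edgeR adjusted p = 0.406). The groups did not overlap, but 10.5% of its exon length lies over exons of Lyrm1 on the opposite strand, and the library kit does not mark strand. Dnah1, the most abundant heavy chain per length, had 12.04, 17.1, 10.5 and 10.3 CPM against 8.62, 8.27, 7.34 and 10.2 CPM, a log2 fold change of -0.54 (SE 0.17, edgeR adjusted p = 0.375). Its groups were apart only narrowly, at the fourth library of each group. Leaving out WT replicates 1 and 2 gave -0.28. Dnah2 had 2.62, 3.72, 2.18 and 3.06 CPM against 1.195, 1.36, 2.42 and 1.65 CPM (log2 fold change -0.80, SE 0.28), with 1 overlapping library.

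The Dnah7 genes are near copies of each other on chromosome 1, and their values went in different directions. Dnah7a had a log2 fold change of -0.60 (SE 0.26) and Dnah7b of -0.48 (SE 0.23). Dnah7c had 4.59, 4.30, 4.29 and 4.42 CPM in WT and 6.54, 3.96, 5.41 and 5.73 CPM in the other group (log2 fold change 0.30, SE 0.18, edgeR adjusted p = 0.598). Up to 24.9% of the 100-base stretches of these genes also occur in transcripts of other genes, so how reads were divided among them is uncertain. The 3 genes summed to 10.3 ± 1.27 CPM in WT and 9.46 ± 1.1 CPM in the other group (SD, n = 4, exact permutation p = 0.343), a difference within the spread. This sum was chosen after the values were seen. Dnah10, the remaining inner arm heavy chain, had a log2 fold change of 0.10 (SE 0.26), and Dnah14 one of -0.02 (SE 0.34).

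All 5 outer arm heavy chain genes were below WT, against 51.4% of all genes, with a median of -0.51. Without WT replicates 1 and 2 the class had 3 of 5 below WT, against 49.7% of all genes, and a median of -0.46. Its summed level and its score both overlapped between the groups. Only Dnah11 had separate groups, and it reached the filter level in all WT but fewer libraries labelled Nsun5-KO. Dnah11 (chr12:117877982-118199043, minus strand) had 1.10, 2.18, 1.21 and 0.851 CPM in WT and 0.629, 0.118, 0.497 and 0.681 CPM in the other group. Its log2 fold change was -1.45 (SE 0.47, edgeR adjusted p = 0.365). Dnah9 had 6.98, 6.73, 8.89 and 4.37 CPM against 4.91, 3.54, 6.84 and 3.35 CPM (log2 fold change -0.53, SE 0.26), with overlap. Dnah5, the outer arm heavy chain best known from primary ciliary dyskinesia, had 5.12, 6.67, 3.99 and 5.05 CPM against 3.96, 2.89, 7.52 and 4.20 CPM, and its highest value of all was in replicate 3 labelled Nsun5-KO (log2 fold change -0.17, SE 0.27). Dnah17 and Dnah8, which are best known from sperm, were near the filter level, with log2 fold changes of -0.51 (SE 0.46) and -0.05 (SE 0.47).

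The smaller dynein chains in the set are intermediate and light intermediate chains. Dnali1, a light intermediate chain of inner arms, had 1.34, 3.14, 1.88 and 1.30 CPM in WT and 1.32, 0.886, 1.18 and 1.08 CPM in the other group (log2 fold change -0.77, SE 0.34, edgeR adjusted p = 0.459). The groups overlapped by a single pair of libraries. The outer arm intermediate chain genes differed from each other in size: Dnaic2 had a log2 fold change of -0.54 (SE 0.28), -0.12 without WT replicates 1 and 2, and Dnaic1 one of -0.04 (SE 0.19).

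**Figure D2:**
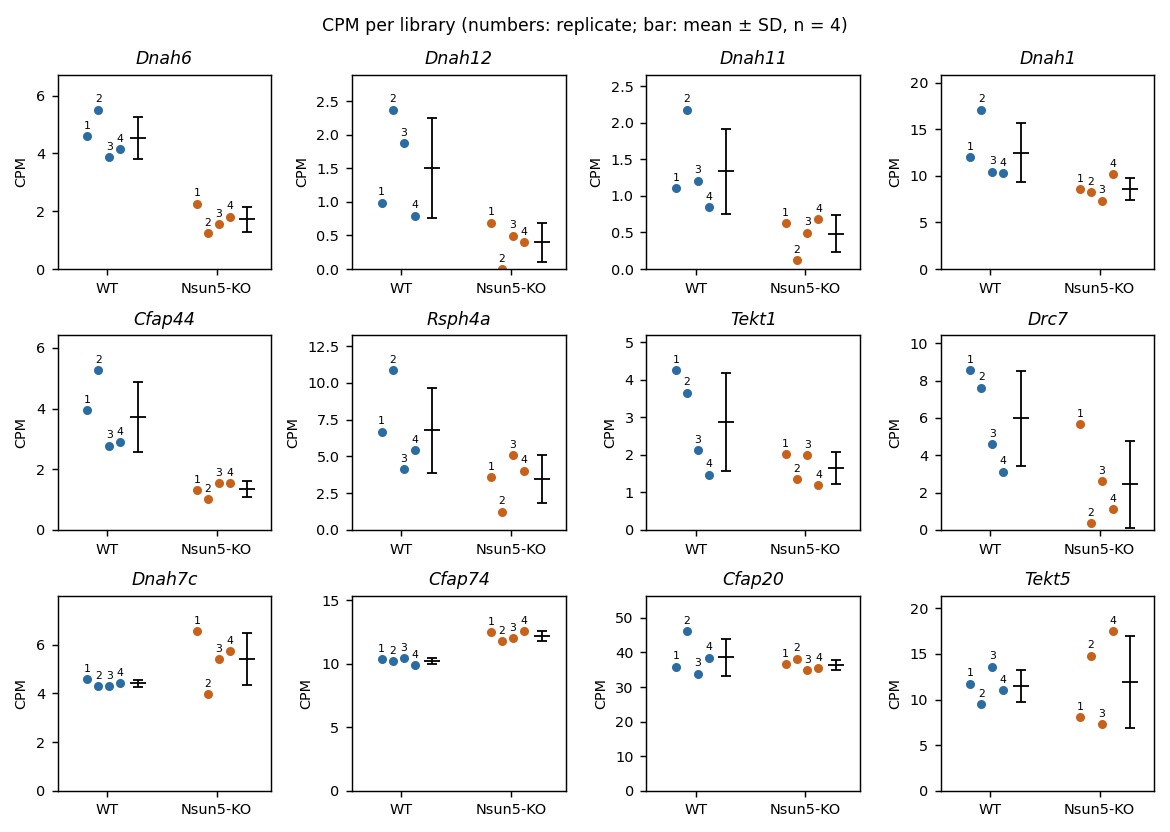
CPM in each library of members the text describes, with WT (blue) and libraries labelled Nsun5-KO (orange) side by side; points are single libraries with their replicate number, and black marks are the mean ± SD of 4. Dnah6 and Cfap44 show 4 WT points above all 4 points of the other group, while Dnah7c lies at 3.96 to 6.54 CPM in those labelled Nsun5-KO and 4.29 to 4.59 CPM in WT.

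Among the other members, the tether and docking proteins that anchor inner arm dyneins held the gene with the smallest p. Cfap44 (chr16:44394796-44482428, plus strand) encodes a tether protein of an inner arm dynein. It had 3.95, 5.26, 2.78 and 2.89 CPM in WT and 1.32, 1.004, 1.55 and 1.53 CPM in those labelled Nsun5-KO. The groups did not overlap, with means of 3.72 ± 1.15 and 1.35 ± 0.255 CPM (SD, n = 4) and a log2 fold change of -1.45 (SE 0.27, 95% interval -2.04 to -0.86, edgeR adjusted p = 0.196). Over 20 alternatives its adjusted p lay between 0.00326 (DESeq2) and 0.772 and passed 0.05 in 2. Without WT replicates 1 and 2 the log2 fold change was -1.07. Cfap43, its partner in the tether, had 2.38, 3.98, 3.21 and 2.89 CPM against 2.20, 1.59, 3.05 and 2.21 CPM (log2 fold change -0.46, SE 0.25) and overlapped. Cfap43 was named after its value was seen.

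Of 8 tested radial spoke genes 6 were below WT, against 51.4% of all genes, with a median of -0.37. At an unadjusted p below 0.05, 4 of them were lower, where 5.05% of all genes were. Without WT replicates 1 and 2 the class had 5 of 8 below WT and a median of -0.22. Its summed level and its score both overlapped between the groups. Rsph1, a spoke head protein, had 4.59, 3.78, 5.32 and 4.20 CPM in WT and 2.77, 1.77, 3.92 and 3.06 CPM in the other group (log2 fold change -0.64, SE 0.24, edgeR adjusted p = 0.412). A single library, replicate 3 labelled Nsun5-KO, overlapped WT. Rsph4a, another spoke head protein, had 6.69, 10.8, 4.11 and 5.45 CPM against 3.58, 1.24, 5.10 and 4.03 CPM (log2 fold change -0.95, SE 0.41), and its value without WT replicates 1 and 2 was -0.46. Rsph9 (-0.36, SE 0.15) and the spoke-associated Cfap61 (-0.63, SE 0.22) were also lower at an unadjusted p. Rsph3a and Rsph3b, named after their values were seen, share 60.6% and 64.8% of their 100-base stretches with other transcripts, and their sum was 19.6 ± 5.72 CPM for WT and 19.5 ± 3.54 CPM in the other group (SD, n = 4, exact permutation p = 0.971).

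The nexin-dynein regulatory complex was represented by 3 genes with a median of -0.19. Drc7 had 8.55, 7.63, 4.60 and 3.12 CPM in WT and 5.66, 0.354, 2.61 and 1.14 CPM in the other group. Its groups overlapped (log2 fold change -1.30, SE 0.70), and the value was -0.67 without WT replicates 1 and 2 and -2.98 without replicates 1 and 3 labelled Nsun5-KO. Drc1 and Drc3 had log2 fold changes of -0.19 (SE 0.14) and 0.12 (SE 0.12). The Drc genes were named after their values were seen.

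Tektins form filaments along the doublets, and 3 of the 4 tested were lower at an unadjusted p below 0.05, where 5.05% of all genes were. Tekt2 had a log2 fold change of -1.06 (SE 0.45), Tekt4 one of -0.95 (SE 0.42) and Tekt1 one of -0.81 (SE 0.34). Tekt2 and Tekt4 reached the filter level in all WT but fewer libraries labelled Nsun5-KO, and the filter could favour such members. Without WT replicates 1 and 2 their log2 fold changes were -0.90 and -0.87 (edgeR unadjusted p = 0.171 and 0.135). Tekt1 had 4.25, 3.65, 2.12 and 1.48 CPM in WT and 2.01, 1.36, 1.99 and 1.19 CPM in the other group. Its high values were those of WT replicates 1 and 2, without which the log2 fold change was -0.14. Tekt5 had 11.8, 9.49, 13.6 and 11.1 CPM against 8.05, 14.8, 7.34 and 17.5 CPM, with the libraries labelled Nsun5-KO both below and above WT (log2 fold change 0.06, SE 0.27).

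In the central apparatus 6 of 7 tested genes were below WT, against 51.4% of all genes, with a median of -0.40. The exception had separate groups in the opposite direction. Cfap74 (chr4:155409190-155466823, plus strand) had 10.3, 10.2, 10.5 and 9.87 CPM in WT and between 11.8 and 12.5 CPM in the 4 labelled Nsun5-KO. Every value of the second group was above every WT value, for a log2 fold change of 0.25 (SE 0.10, edgeR adjusted p = 0.426), where 2.99% of all genes had separate groups that were higher. This was the direction in all 20 alternatives, from 0.14 to 0.27. Cfap46 (-0.68, SE 0.26) and Cfap65 (-0.61, SE 0.24) were lower at an unadjusted p, and Cfap70 had a log2 fold change of -0.77 (SE 0.38). Cfap70 reached the filter level in all WT but fewer libraries labelled Nsun5-KO, and the filter could favour such members.

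Doublet inner proteins gave 5 of 5 tested genes below WT, against 51.4% of all genes, with a median of -0.50. Without WT replicates 1 and 2 the class had 4 of 5 below WT, against 49.7% of all genes, and a median of -0.3. Its summed level and its score both overlapped between the groups. Cfap126, also called Flattop, had 2.38, 3.78, 1.69 and 2.15 CPM in WT and 1.82, 1.12, 1.12 and 0.908 CPM in the other group, overlapping at a single pair of libraries (log2 fold change -1.01, SE 0.32, edgeR adjusted p = 0.361). Cfap161 had a log2 fold change of -1.15 (SE 0.58). Cfap161 and Cfap52 reached the filter level in all WT but fewer libraries labelled Nsun5-KO, and the filter could favour such members. Cfap52 was named after its value was seen. Cfap20, which sits at the inner junction of the doublet, is among the most abundant members and had 35.9, 46.1, 33.9 and 38.5 CPM against 36.6, 38.2, 34.9 and 35.5 CPM (log2 fold change -0.09, SE 0.10).

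The members with the highest levels per length differed little. Cfap36 had a WT mean of 38.5 FPKM and a log2 fold change of -0.07 (SE 0.08). Cfap97 had one of 0.00 (SE 0.07), with a 95% interval of -0.16 to 0.16. Cfap300 and Cfap298, both linked to the assembly of dynein arms, had log2 fold changes of -0.25 (SE 0.13) and 0.17 (SE 0.21). For Cfap298, 44.2% of the exon length lies over a gene on the opposite strand.

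Sparse members had the more negative fold changes, and so did sparse genes outside the set. Under 1 FPKM, 34 of 37 tested members were below WT with a median of -0.54, beside 64.0% and -0.12 for the 3146 other genes tested at that level. From 1 to 5 FPKM, 8 of 11 members were below WT with a median of -0.18, beside 55.8% and -0.02. Above 5 FPKM, 6 of 8 were below WT with a median of -0.08, beside 42.9% and 0.02. Without WT replicates 1 and 2 the 3 medians of the members were -0.40, -0.02 and -0.06. These level classes were chosen after the values were seen.

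**Figure D3:**
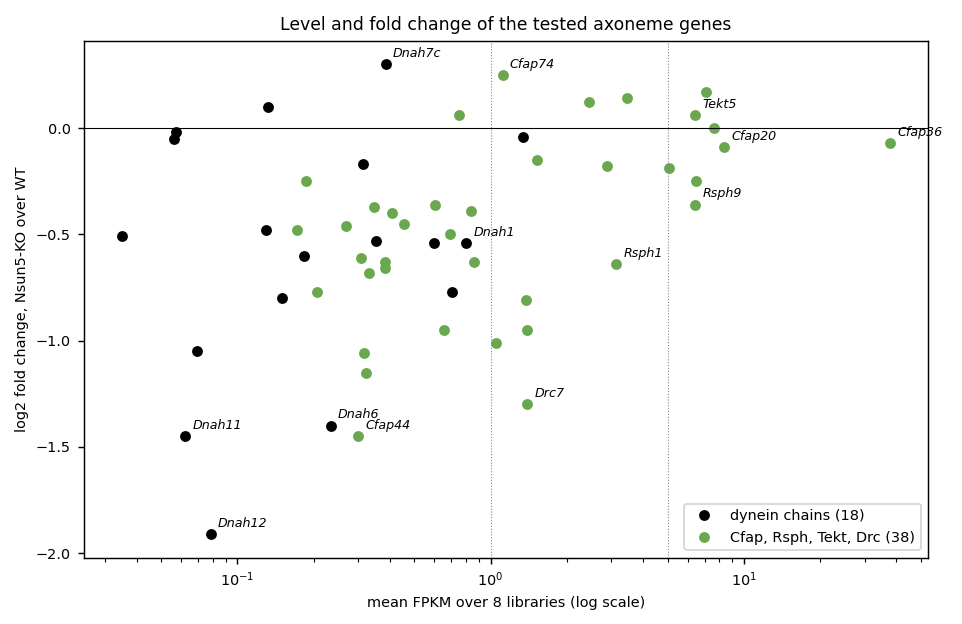
Mean level per length (FPKM, log axis) of each tested member against its edgeR log2 fold change (libraries labelled Nsun5-KO over WT), with dyneins in black, other members in green and dotted lines at 1 and 5 FPKM. Members under 1 FPKM spread down to -1.91, while those above 5 FPKM lie between -0.36 (Rsph9) and 0.17 (Cfap298).

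The filter removed 9 members, all outside the dyneins, with 3 to 64 counts over the 8 libraries. For 8 of the 9 the WT sum was higher, and together they had 218 counts in WT and 92 in those labelled Nsun5-KO. Cfap299 had 13, 14, 6 and 12 counts in WT and 4, 6, 6 and 3 in the other group. Cfap53, known for its part in left-right patterning, had 7, 11, 16 and 11 against 4, 0, 3 and 1 counts. Cfap77 had 1, 15, 7 and 4 against 5, 2, 9 and 6 counts, with no separation. The rest, Cfap221, Cfap73, Cfap97d1, Rsph14, Rsph6a and Tekt3, had 40 counts or fewer in all.

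Axoneme genes that the name pattern does not reach also mostly had lower values. Of 59 tested genes in this list 50 were below WT, against 51.4% of all genes, with a median of -0.34. At an unadjusted p below 0.05, 17 were lower and 0 higher, where 5.05% and 5.3% of all genes were. edgeR and DESeq2 each called 0. Without WT replicates 1 and 2 the list had 43 of 59 below WT, against 49.7% of all genes, with a median of -0.33. Without replicates 1 and 3 labelled Nsun5-KO its median was -0.58. Its summed level overlapped (400.6 to 510.2 CPM in WT, 359.1 to 432.0 CPM in the other group), while its score did not. Spef2, a central apparatus protein, had 40, 50, 40 and 29 counts in WT and 20, 14, 15 and 21 in the other group, without overlap (log2 fold change -1.18, SE 0.29, edgeR adjusted p = 0.313). Ak7, an axonemal adenylate kinase, had a log2 fold change of -1.07 (SE 0.32), and Dynlrb2, a dynein light chain of the roadblock family, one of -1.20 (SE 0.37). Dynein arm assembly factors build the arms in the cytoplasm before they enter the cilium. Of 15 tested, 12 were below WT, against 51.4% of all genes, with a median of -0.18. Of these 15, 2 were lower at an unadjusted p below 0.05, where 5.05% of all genes were. Without WT replicates 1 and 2 the median of these factors was -0.09. Their members with the smallest p were Ccdc103 (-0.64, SE 0.29), Dnaaf2 (-0.81, SE 0.36) and Ttc12 (-0.54, SE 0.27).

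Regulators of the motile cilium programme had 12 of 15 tested genes below WT, against 51.4% of all genes, with a median of -0.27. At an unadjusted p below 0.05, 2 were lower and 0 higher, where 5.05% and 5.3% of all genes were. Without WT replicates 1 and 2 the list had 8 of 15 below WT, near the 49.7% of all genes, with a median of -0.10. Without replicates 1 and 3 labelled Nsun5-KO the median was -0.09. Trp73, a transcription factor of multiciliated cells, had 1.86, 1.54, 1.63 and 1.87 CPM in WT and 0.880, 0.472, 1.06 and 0.454 CPM in the other group, without overlap (log2 fold change -1.27, SE 0.33, edgeR adjusted p = 0.313). Foxj1 had 7.91, 12.9, 9.68 and 16.4 CPM against 9.43, 5.25, 5.41 and 9.42 CPM, and its groups overlapped (log2 fold change -0.67, SE 0.27, edgeR adjusted p = 0.446). Rfx1 had a log2 fold change of -0.27 (SE 0.14).

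Genes of intraflagellar transport and the primary cilium, and those of cytoplasmic dynein and dynactin, had medians near 0. For intraflagellar transport and the primary cilium, 26 of 45 tested genes were below WT, against 51.4% of all genes, and 19 above. Their median was -0.03. At an unadjusted p below 0.05, 0 of them were lower and 1 higher, where 5.05% and 5.3% of all genes were. The smallest p there belonged to Sstr3 (0.36, SE 0.11), Ift22 (-0.15, SE 0.07) and Ttc8 (-0.25, SE 0.12). Cytoplasmic dynein and dynactin had 12 of 27 genes below WT, against 51.4% of all genes, and 15 above, with a median of 0.00. At an unadjusted p below 0.05, 0 were lower and 2 higher, where 5.05% and 5.3% of all genes were. The summed level of cytoplasmic dynein and dynactin was 4914 to 5030 CPM for WT and 5052 to 5147 CPM for the other group, without overlap. The smallest p belonged to Ndel1 (0.15, SE 0.06), Actr1b (0.22, SE 0.09) and Nde1 (-0.20, SE 0.10). The difference between these lists and the axoneme members was not tested.

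**Figure D4:**
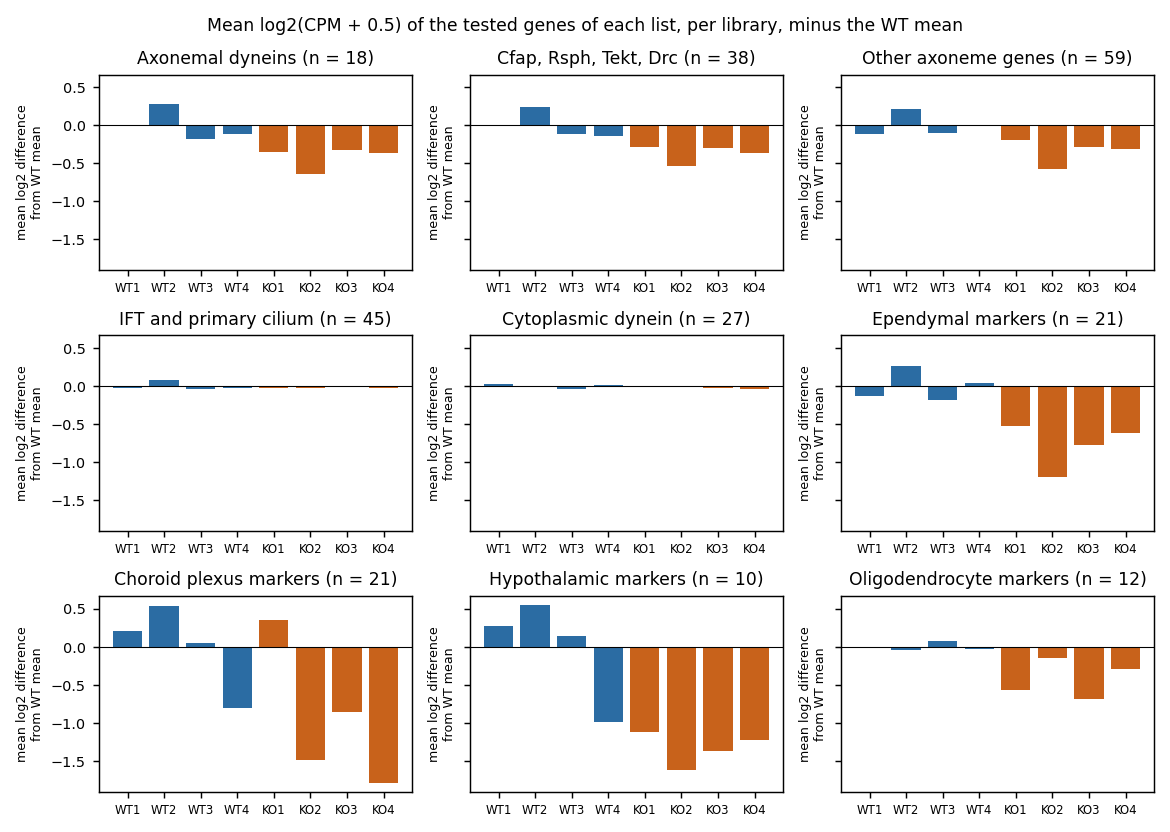
Score of each gene list in each library (average log2(CPM + 0.5) of tested genes, centred on WT, y axis), with 1 panel per list and 1 bar per library, blue for WT and orange for those labelled Nsun5-KO. The dynein score is -0.18 to 0.28 in WT and -0.64 to -0.33 in those labelled Nsun5-KO, the primary cilium list stays between -0.04 and 0.08, and the choroid plexus list spreads from -1.79 to 0.54.

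Markers of ependymal cells, which carry motile cilia, also had lower values. Of 21 tested ependymal markers 20 were below WT, against 51.4% of all genes, with a median of -0.99. At an unadjusted p below 0.05, 16 were lower, where 5.05% of all genes were. DESeq2 called 4 lower, where 0.261% of all genes were, and edgeR called 0. The summed level of these markers was 210.2 to 451.2 CPM in WT and 150.9 to 254.6 CPM in those labelled Nsun5-KO. Their median without WT replicates 1 and 2 was -1.0. The list shares 2 genes with the members and 5 with the axoneme list. Its defining markers were detected in every library: Ccdc153 had 2.96, 6.92, 4.17 and 4.88 CPM in WT and 2.26, 0.591, 1.31 and 1.65 CPM in the other group, and Rarres2 had 4.13, 5.45, 4.72 and 5.50 against 3.52, 2.36, 2.98 and 3.35 CPM. Whether the amount of ependyma in the samples had a part in the member values was not tested.

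Choroid plexus markers varied widely between libraries of both groups. All 21 tested were below WT, against 51.4% of all genes, with a median of -0.85. None of the 21 was lower at an unadjusted p below 0.05, and edgeR and DESeq2 each called 0 of them. Their summed level was 778.5 to 2022 CPM for WT and 398.3 to 2008 CPM for the other group, and the median was -0.27 without WT replicates 1 and 2 and -2.42 without replicates 1 and 3 labelled Nsun5-KO. Hypothalamic neurons lie beside the third ventricle. Of 18 markers of these neurons only 10 passed the filter, which could favour markers that are high in a single group. All 10 were below WT, against 51.4% of all genes, with a median of -1.86. The summed level of the 18 was 60.4 to 197.1 CPM in WT against 34.0 to 49.2 CPM. Of these 10, 6 were lower at an unadjusted p below 0.05, where 5.05% of all genes were. DESeq2 called 4 lower, where 0.261% of all genes were, and edgeR called 0. Which part of the brain each library held, and its part in the member values, was not tested.

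Markers of other cell types lay on both sides of WT. Oligodendrocyte markers had 12 of 12 genes below WT (median -0.40), against 51.4% of all genes. Of these markers 11 were lower at an unadjusted p below 0.05, where 5.05% of all genes were. Neuron markers had 10 of 12 above (median 0.17), 6 of them higher at an unadjusted p, where 5.3% of all genes were. The medians for astrocytes, microglia, endothelial and mural cells and tanycytes were -0.04, -0.02, 0.05 and -0.10. The tanycyte marker Rax had 1 count in 1 library and 0 in the other 7. Sperm tails also hold axonemes, and of 12 testis germ cell markers only 4 passed the filter (median -0.64). Tnp1 had 0 counts in all 8 libraries, and Prm1 had 0, 1, 0 and 2 in WT and 3, 3, 3 and 6 in the other group.

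The letters GTTGCTA stood in 23 of 61 promoters (37.7%) of the 54 members found in the RefSeq promoter table, against 3.66% of 32851 promoters of all genes, over 250 bases before to 50 bases after each start and on either strand. Dyneins held it in 9 of 17 promoters and the others in 14 of 44. Of 24 windows, 18 lay within 100 bases upstream of the start. This spelling was among 12 that were counted after the first results were seen, and it was picked from their counts. The spellings searched first were rarer: the full X-box repeat with both arms in 1.64% of member promoters against 0.451%, GTTGCCATG in 6.56% against 0.773%, and the forkhead spelling GTAAACA in 6.56% against 3.65%. The Dnah7 promoters resemble each other, so their matches are not separate observations.

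The difference in fold change between members with and without these letters was not tested. Of 20 tested members with GTTGCTA 16 lay below WT and the median was -0.38 on the log2 scale (-1.91 to 0.30). Of 28 tested members without it 25 were below WT and their median was -0.49 (-1.45 to 0.25). Dnah12 and Cfap44, among the members with the most negative fold changes, carry it, as does Dnah7c, which was above WT. Both arms of the X-box stand next to each other in the Cfap44 window, where GTTGCTA is followed by the letters tggcaac.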

How the data were processed

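RNA from brain tissue was extracted with TRIzol and made into libraries with a NEBNext Ultra kit, per the labels' protocols, without strand information. HISAT2 2.0.5 and the build mm10 are listed for the alignment in the submitters' processing notes; which program counted the reads, and over which annotation, is not given in the sources used here. Values in the authors' deposited count table are whole numbers of reads per gene, not normalised, and the deposited FPKM values are those counts scaled by gene length and library size. The deposited group means of FPKM were not used.

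Genes were filtered with filterByExpr by group and scaled by the trimmed mean of M values. Genotype was tested over all 8 libraries with the robust quasi-likelihood test of edgeR 4.0.16 (R 4.3.3), without covariates, and p-values were adjusted by Benjamini-Hochberg over all 16062 genes tested. A fold change is the log2 of Nsun5-KO-labelled over WT libraries, and CPM uses the effective library size. Single genes were also compared by an exact two-sided permutation of 70 labelings, with 0.0286 as the smallest possible p. Lists of genes were described by counts and medians, with no test. The pipeline was tested on simulated data. Alternatives were DESeq2 1.42.0, limma 3.58.1 (voom with sample weights, and log2 FPKM with 1 or 0.1 added), further scalings and filters, protein-coding genes alone, the replicate number as a block, each library left out in turn, and WT replicates 1 and 2 or replicates 1 and 3 labelled Nsun5-KO left out together.

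The members and lists were chosen with earlier results of these data known. The text names Nsun5, Dnah6, Cfap44, every tested dynein, the 14 other tested members with the smallest p and the 6 with the highest FPKM, the 3 genes with the smallest p in each pathway list and the 3 removed members with the most counts; other genes named are markers of cell types, the rest of the removed members, or genes marked as chosen later. Overlaps between genes and shared 100-base stretches came from GENCODE M21, in which 60 of the 65 members have the coordinates of the deposited table. Promoters came from RefSeq (GRCm38.p6) and matched 54 of the 65 members by symbol. Protein identity between the dyneins was not analysed here. A promoter stretch of a further member is not reported here.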

Additional observations from a re-analysis of the deposited data

Results flagged for a closer look

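Dnaic1 in WT replicate 3 lay apart from the rest of its group, with 3.21 CPM against 4.03 to 4.07 CPM in the other 3 WT libraries. This was the single such value among 114 groups of 4 libraries, for 57 genes; chance alone flags about 1 in 20 groups.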

How the results depend on the processing

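edgeR called 0 dyneins and 0 other members. DESeq2, and edgeR without the low-count filter, each called 1 dynein (Dnah6, log2 fold change -1.39) and 1 other member (Cfap44, -1.45). On log2(FPKM + 1) the medians were -0.07 for the dyneins and -0.14 for the others, since the added constant is larger than most of these levels. Without WT replicates 1 and 2 they were -0.35 and -0.26, and without replicates 1 and 3 labelled Nsun5-KO the others had -0.58. With each library left out in turn the medians lay between -0.59 and -0.45 for the dyneins and between -0.51 and -0.26 for the others, and 0 members were called. The number of dyneins whose groups did not overlap in either direction, 5 of 18 beside 5.7% of all genes, was 2 with at least 1 CPM in 4 libraries, where 12 dyneins were tested (5.64% of all genes), and 9 without replicates 1 and 3 labelled Nsun5-KO (14.7%). It was 5 to 8 with 1 library left out, the highest without WT replicate 3. Of the other members 2 of 38 had such groups, a share near that of all genes, against 8 of 39 without WT replicates 1 and 2 (18.1% of all genes), 20 of 40 without replicates 1 and 3 labelled Nsun5-KO, and 4 to 11 with 1 library left out (7.89% to 10.9% of all genes), the highest without WT replicate 3 (10.5%). Fewer libraries overlap less often by construction. The cause of the other changes was not tested.

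Of 1071 values of named genes under alternatives, 1024 kept their direction and side of the threshold and 43 changed sign, all for 10 genes near 0. With a library left out, the value ranged from -0.03 to 0.25 for Dnah10, -0.20 to 0.16 for Dnah14, -0.50 to 0.00 for Dnah5, -0.51 to 0.34 for Dnah8, -0.16 to 0.04 for Dnaic1, -0.11 to 0.01 for Cfap36, -0.14 to 0.00 for Cfap20, -0.03 to 0.04 for Cfap97 and -0.19 to 0.23 for Tekt5. Without WT replicates 1 and 2, Dnah14 was 0.47, Dnah5 0.03, Dnah8 0.48, Dnaic1 0.04, Cfap36 0.07, Cfap20 0.00, Cfap97 0.06, Cfap298 -0.07 and Tekt5 -0.05. Without replicates 1 and 3 labelled Nsun5-KO, Dnah8 was 0.24, Dnaic1 0.14 and Cfap298 -0.02. With voom, Dnah14 was 0.11, Cfap97 0.01 and Tekt5 -0.05. Tekt5 was -0.01 on log2(FPKM + 1) and -0.03 on log2(FPKM + 0.1), where Dnah14 was 0.00. Cfap97 was 0.00 with DESeq2, without the filter and on both FPKM scales.

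The labels number the replicates alike in both groups, but same-numbered libraries did not deviate together (correlations -0.115, -0.213, -0.041 and 0.063), so the numbers were not taken as pairs. With the replicate block edgeR called 0 members, as without it, and the medians were -0.53 and -0.44, with Dnah14 at 0.02 and Tekt5 at -0.02. No library correlated best with its own number.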
